A study of Mus musculus with 3 samples.

Results

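The 10 nuclear lamina and envelope genes Lmna, Lmnb1, Lmnb2, Lbr, Tmpo, Emd, Lemd3, Banf1, Sun1 and Sun2 were examined for NF-Y binding and H3K4me3 in the mouse embryonic cortex, out of 21951 protein-coding genes in the GENCODE M21 annotation. A peak was assigned to a gene when it overlapped the gene body or the 5 kb before its 5′ end. The series holds 3 ChIP-seq libraries from cortices at E13.5, namely input without antibody, NF-Y-ChIP with an antibody against the NF-YC subunit and H3K4me3-ChIP, 1 library of each. All 3 came from formalin-fixed, sonicated whole cortex, and the labels state no genotype, strain or number of embryos. The lists used here hold 733 NF-Y-ChIP peaks and 18816 H3K4me3-ChIP peaks. The genes were picked by function with NF-Y-ChIP results known, and the pair Lbr and Tmpo, set against the other 8, was selected on NF-Y-ChIP peaks, so the NF-Y-ChIP values are a description. With 1 library per antibody no replicate error and no p-value can be given, and differences between genes are differences within 1 library.

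The nuclear lamina is a meshwork of A-type and B-type lamins beneath the inner nuclear membrane. The lamin B receptor LBR and the LEM domain proteins emerin, LEMD3 and the membrane-bound forms of LAP2, which Tmpo encodes, are proteins of the inner nuclear membrane that contact lamins or chromatin. BANF1 binds DNA and LEM domains, and the SUN proteins SUN1 and SUN2 join the lamina to the cytoskeleton through the LINC complex. NF-Y is a trimer of NF-YA, NF-YB and NF-YC that binds the CCAAT box, and H3K4me3 is a histone mark of active promoters.

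Of the 7 genes with a CCAAT box near the start, the promoter sequences of 6 are shown, 3 with and 3 without an NF-Y-ChIP peak, so that their boxes can be compared. Lmnb1, the other one, is described by the position of its box only. Each is the 130 bp upstream of the transcription start site (TSS) on the strand of the gene, written 5′ to 3′ from the GRCm38 reference, with every CCAAT or its reverse complement ATTGG in capitals. The TSS was the 5′ end of the principal protein-coding transcript. Lbr (chr1:181842380-181842509, minus strand), Tmpo (chr10:91171579-91171708, minus strand) and Lemd3 (chr10:120979333-120979462, minus strand) had an NF-Y-ChIP peak here. Sun2 (chr15:79742535-79742664, minus strand), Sun1 (chr5:139200507-139200636, plus strand) and Emd (chrX:74254557-74254686, plus strand) had none.
Lbr: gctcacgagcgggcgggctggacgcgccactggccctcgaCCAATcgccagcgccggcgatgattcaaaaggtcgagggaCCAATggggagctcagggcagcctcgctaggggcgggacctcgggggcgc
Tmpo: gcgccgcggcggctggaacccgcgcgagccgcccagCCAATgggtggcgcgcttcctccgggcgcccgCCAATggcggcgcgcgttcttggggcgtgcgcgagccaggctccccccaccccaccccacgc
Lemd3: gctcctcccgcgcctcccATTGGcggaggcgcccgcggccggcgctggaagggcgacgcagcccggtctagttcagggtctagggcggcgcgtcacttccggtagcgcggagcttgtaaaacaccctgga
Sun2: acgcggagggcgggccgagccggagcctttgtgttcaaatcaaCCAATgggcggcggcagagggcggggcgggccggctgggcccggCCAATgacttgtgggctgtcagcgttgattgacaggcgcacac
Sun1: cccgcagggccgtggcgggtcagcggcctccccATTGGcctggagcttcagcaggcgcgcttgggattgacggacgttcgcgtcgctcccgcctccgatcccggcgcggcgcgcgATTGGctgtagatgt
Emd: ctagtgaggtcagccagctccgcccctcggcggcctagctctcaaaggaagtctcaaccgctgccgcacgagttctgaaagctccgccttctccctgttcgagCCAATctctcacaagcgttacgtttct

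Lbr and Tmpo each held 2 boxes read as CCAAT on the strand of the gene. Their centres lay 48 and 88 bp upstream of the TSS of Lbr, 40 bp apart, and 60 and 92 bp upstream of the TSS of Tmpo, 32 bp apart. Sun2 had a like arrangement, with 2 boxes read as CCAAT, 41 and 85 bp upstream and 44 bp apart, but no NF-Y-ChIP peak. In Sun1, both boxes were read as ATTGG, 13 and 95 bp upstream and 82 bp apart. Lemd3 had a single ATTGG 110 bp upstream, Lmnb1 a single ATTGG 83 bp upstream and Emd a single CCAAT 25 bp upstream.

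NF-Y-ChIP peaks lay at 4 of the 10 genes, Tmpo, Lmnb1, Lemd3 and Lbr, against 3.69% of all protein-coding genes by the same rule. The share of 40% has a Wilson 95% interval of 16.8 to 68.7%, which covers counting only. Because the genes were picked with NF-Y-ChIP results known, the interval is no test against the 3.69%. The division into genes with and without an NF-Y-ChIP peak was not the division of Lbr and Tmpo from the others. Lmnb1 and Lemd3 were on the same side as Lbr and Tmpo. No NF-Y-ChIP peak was assigned to Lmna, Lmnb2, Emd, Banf1, Sun1 or Sun2. Each of the 4 genes had 1 NF-Y-ChIP peak. By the narrower rule of a summit within 1 kb of a TSS the count was also 4 of 10, against 3.17% of all protein-coding genes, and among all genes with an NF-Y-ChIP peak 85.7% had such a summit. Each of the 4 peaks lay wholly inside a broader H3K4me3-ChIP peak, as did 68.9% of all NF-Y-ChIP peaks.

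**Figure D1:**
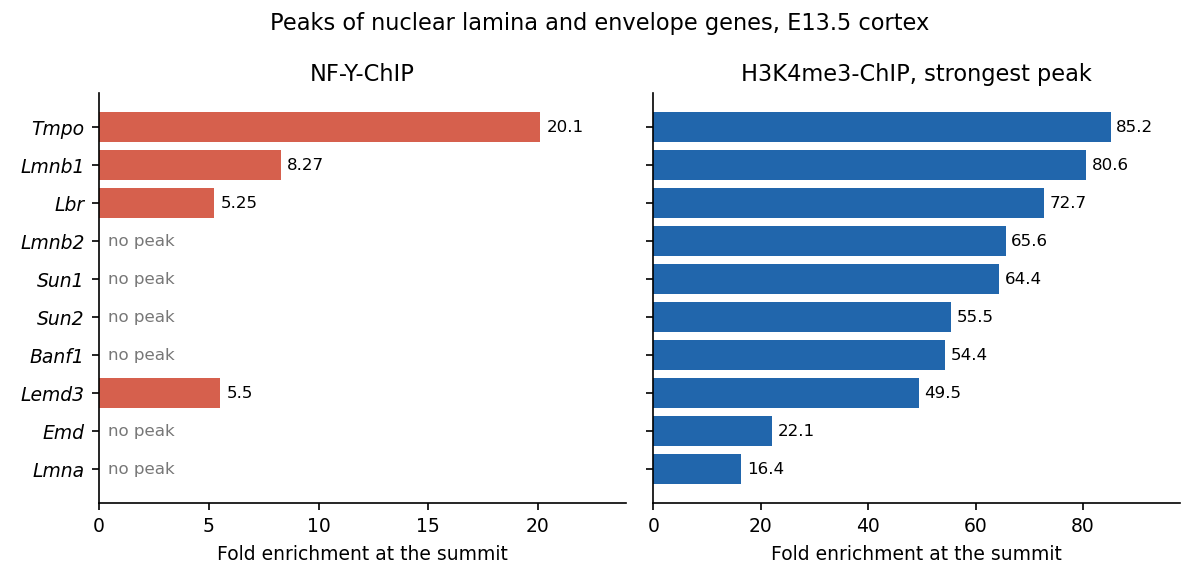
Fold enrichment at the summit of the NF-Y-ChIP peak (left) and of the strongest H3K4me3-ChIP peak (right) at each of the 10 genes, 1 library per antibody and therefore without error bars. Only Tmpo, Lmnb1, Lbr and Lemd3 have an NF-Y-ChIP bar, and the H3K4me3-ChIP bars run from 85.2 at Tmpo to 16.4 at Lmna.

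Tmpo, which encodes the lamina-associated LAP2 proteins, had the strongest NF-Y-ChIP peak of the group. Its fold enrichment, which is summit signal divided by local background, was 20.1, rank 21 of 733. The peak (chr10:91171502-91171825, 324 bp wide) had its summit 71 bp upstream of the TSS. The boxes lay 11 and 21 bp from the summit, one on each side of it. The second-strongest was Lmnb1, a B-type lamin gene, with 8.27-fold enrichment and rank 214, from a peak (chr18:56707616-56707882) of 267 bp with the summit 53 bp upstream of the TSS. A single ATTGG, 83 bp upstream of the Lmnb1 TSS, lay 30 bp from the summit.

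Lemd3, which encodes the inner membrane protein also called MAN1, and Lbr, which encodes a lamin and heterochromatin tether with sterol reductase activity, had weaker peaks. The Lemd3 peak (chr10:120979325-120979495) had 5.5-fold enrichment, rank 523, with the summit 65 bp upstream of the TSS and 45 bp from the ATTGG. The Lbr peak (chr1:181842385-181842555) had 5.25-fold enrichment, a value shared by 18 peaks at rank 554, with the summit 92 bp upstream. One CCAAT lay 4 bp from the Lbr summit and the other 44 bp from it. Both peaks were 171 bp wide, below the list median of 224 bp, and both were weaker than the list median of 6.75-fold. Lbr was thus the weakest of the 4 and Tmpo the strongest, with Lmnb1 and Lemd3 between them. The annotation places the Lmnb1 and Lemd3 summits upstream of the gene, and the Lbr and Tmpo summits in an intron of longer transcripts of these genes, upstream of the principal one.

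The −log10 p of the 4 peaks was 47.9 at Tmpo, 14.1 at Lmnb1, 8.41 at Lbr and 7.89 at Lemd3, so the order of Lbr and Lemd3 was the opposite of that by fold enrichment. The lowest value in the whole list was 3.62. At the other limit of the rule, 5 kb, the nearest NF-Y-ChIP summit outside it lay 11732 bp from the TSS of Lmnb2, a B-type lamin gene. That peak (chr10:80929868-80930088) had 3.52-fold enrichment and lay 96 bp from the TSS of Gadd45b. With a limit of 50 kb, counting every gene in reach, it would be assigned to Lmnb2. By that rule 6.61% of all protein-coding genes would have an NF-Y-ChIP peak. The next nearest was 71694 bp from Banf1, at Sf3b2. The distance was 140313 bp for Sun2, 259947 bp for Sun1 and 586713 bp for Lmna, and on the X chromosome it was 24966379 bp for Emd.

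**Figure D2:**
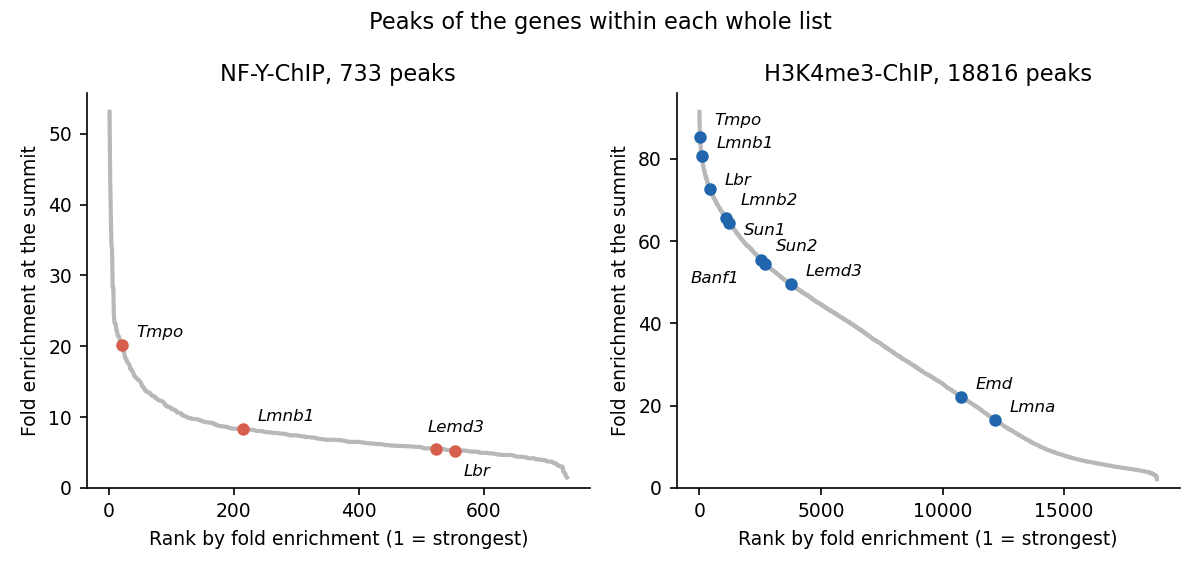
Fold enrichment of all peaks in each list against rank (grey), with the strongest peak of each gene marked; both axes are linear. Tmpo holds rank 21 in both lists, while Lbr holds rank 554 of 733 for NF-Y-ChIP and rank 425 of 18816 for H3K4me3-ChIP.

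All 4 NF-Y-ChIP peaks had a box no more than 50 bp from the summit, as did 88.1% of all NF-Y-ChIP peaks. At Lbr and Tmpo there were 2, as at 46.8% of all peaks with 2 or more, and at Lmnb1 and Lemd3 there was 1. The promoter window, from 250 bp upstream to 50 bp downstream of the TSS, held a box in 7 of the 10 genes, against 38.6% of all protein-coding genes and 37.5% of those with an H3K4me3-ChIP summit within 1 kb of a TSS, called marked genes here. It held 2 boxes in 4 genes, Lbr, Tmpo, Sun1 and Sun2, against 12.4% of all genes with 2 or more. No box was found in this window at Lmna, Lmnb2 or Banf1. All 4 genes with an NF-Y-ChIP peak had a box, and 3 of the 6 without did. The genes were picked with NF-Y-ChIP results known, so their shares of boxes and of the consensus below are a description too. The extended NF-Y consensus adds 4 flanking bases, purines before CCAAT and at the last place, and C or G directly after CCAAT. All 11 boxes of the 7 genes had at least 3 of these 4 bases, as had 54.5% of the boxes in the windows of all protein-coding genes, and 8 had all 4, as had 25.8%. The full consensus was present in the window at 5 of the 10 genes, Lmnb1, Lbr, Tmpo, Sun1 and Sun2, against 12.1% of all genes, and not at Emd or Lemd3. It lay within 50 bp of the summit in 3 of the 4 NF-Y-ChIP peaks, all but that of Lemd3, against 62.6% of all NF-Y-ChIP peaks. The position of the start matters for Lbr and Tmpo, since a window at the 5′ end of the gene, where longer transcripts begin, held a box at 5 of the 10 genes, Lmnb1, Emd, Lemd3, Sun1 and Sun2, against 39.1% of all genes.

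**Figure D3:**
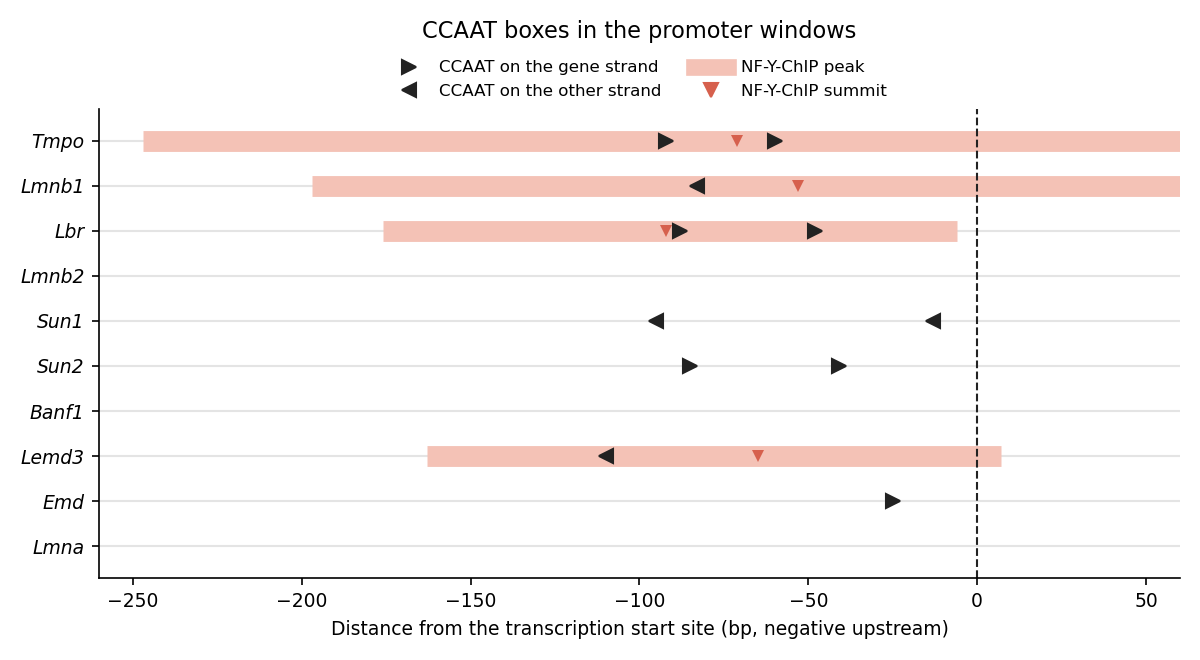
Positions of CCAAT boxes relative to the TSS in the promoter window of each gene, with the direction of the arrowhead giving the strand, and the extent and summit of the NF-Y-ChIP peaks. Sun1, Sun2 and Emd have boxes upstream of the TSS but no NF-Y-ChIP peak, and Lmnb2, Banf1 and Lmna have no box.

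Among the 13615 marked genes, an NF-Y-ChIP summit within 1 kb was found at 1.3% of those with no box in the window, 4.99% of those with 1 box and 22.5% of those with 2 or more. Lmna, Lmnb2 and Banf1 fall in the first class, Lmnb1, Lemd3 and Emd in the second and Lbr, Tmpo, Sun1 and Sun2 in the third. Within the second class Lmnb1 and Lemd3 had a peak and Emd had none. Within the third Lbr and Tmpo had a peak and Sun1 and Sun2 had none. The spacing of the boxes was looked at after the values were seen. Of 355 marked genes with exactly 2 boxes 30 to 45 bp apart, the class of Lbr, Tmpo and Sun2, 21.4% had an NF-Y-ChIP summit, and of 628 with a wider spacing, the class of Sun1, 12.9% did.

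All 10 genes had an H3K4me3-ChIP peak, as did 65.4% of all protein-coding genes. At all 10 the strongest had its summit within 1 kb of a TSS, and 62% of all genes had any H3K4me3-ChIP summit there. Tmpo came first with 85.2-fold enrichment (rank 21), then Lmnb1 with 80.6 (rank 93) and Lbr with 72.7 (rank 425). Lmnb2 with 65.6, Sun1 with 64.4, Sun2 with 55.5, Banf1 with 54.4 and Lemd3 with 49.5 followed. Emd, which encodes emerin, with 22.1 and Lmna, which encodes the A-type lamins, with 16.4 stood apart at the lower end, both below the list median of 27.5. By role, the B-type lamin genes Lmnb1 and Lmnb2 lay well above the A-type gene Lmna, the LEM domain genes spread from Tmpo at the top through Lemd3 to Emd, and the SUN genes Sun1 and Sun2 lay close together. The median over the 10 genes was 59.9, beside 40.7 over the marked genes. Because the libraries came from whole cortex, a mark in fewer cells and a weaker mark per cell cannot be told apart.

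Set against the other 8 genes, Lbr and Tmpo had a median H3K4me3-ChIP fold enrichment of 79 against 54.9, a difference of 24. The groups overlapped, because Lmnb1 lay between Tmpo and Lbr. The median width of the strongest peak was 2632 bp for Lbr and Tmpo and 1785 bp for the others, and Lmnb1 with 3182 bp was wider than both Tmpo with 3116 bp and Lbr with 2147 bp. Divided by NF-Y-ChIP instead, the median fold enrichment was 76.6 for the 4 genes with a peak and 54.9 for the 6 without. These groups overlapped too, through Lemd3. Over the marked genes the same medians were 47.5 with an NF-Y-ChIP summit and 40.2 without one.

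The 4 genes with an NF-Y-ChIP peak had H3K4me3-ChIP peaks of 2147 to 3182 bp, and the 6 without had 1064 to 2320 bp. Banf1, at 2320 bp, was the only gene of the 6 that fell in the range of the 4. Over the marked genes the median width was 1657 bp with an NF-Y-ChIP summit and 1398 bp without one. The Banf1 peak also covers the start of Eif1ad, which encodes a putative translation initiation factor. Eif1ad lies on the other strand with its start 427 bp from that of Banf1, so the mark cannot be assigned to a single gene. The Sun2 peak likewise covers the start of the divergent lncRNA Gm16576, 164 bp away. Over the 10 genes, the strongest peak reached from 107 bp (Lmna) to 896 bp (Lmnb1) upstream of the TSS.

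**Figure D4:**
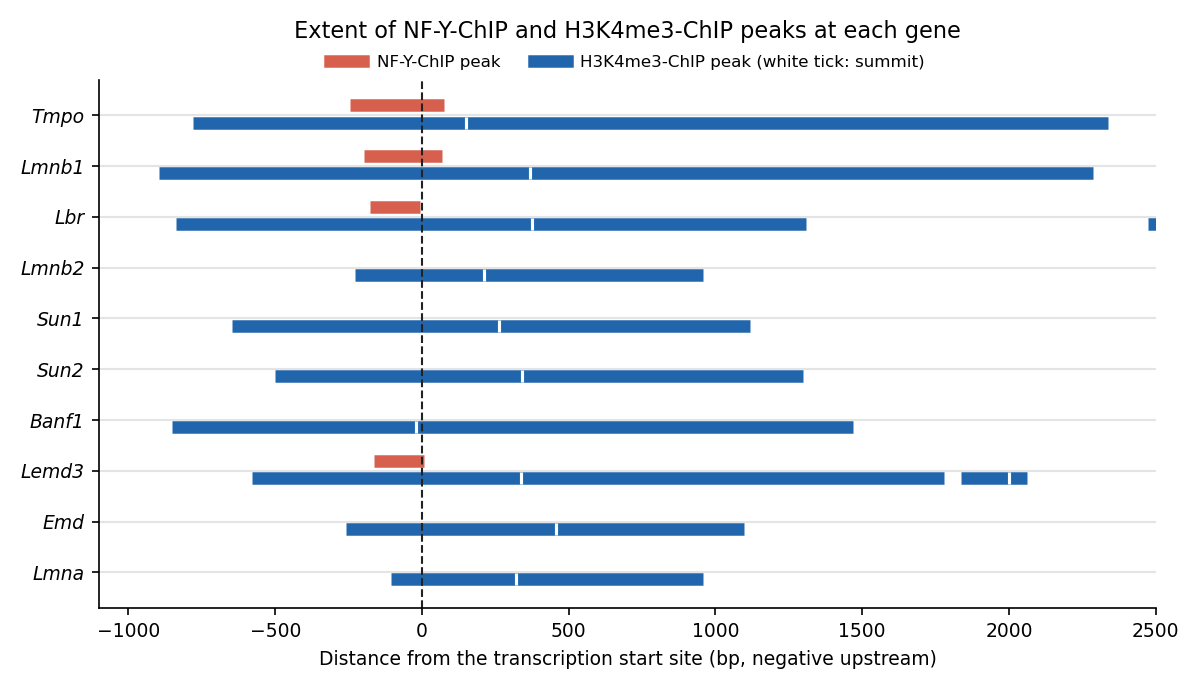
Extent of NF-Y-ChIP peaks (orange) and H3K4me3-ChIP peaks (blue, white tick at the summit) relative to the TSS of each gene, from the strongest to the weakest H3K4me3-ChIP peak. The NF-Y-ChIP peaks of Tmpo, Lmnb1, Lbr and Lemd3 lie upstream of or across the TSS, and the summit of the strongest H3K4me3-ChIP peak lies downstream of it at every gene but Banf1.

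The summits of both marks were in the same order at all 4 genes, NF-Y upstream of the TSS and H3K4me3 downstream of it. The NF-Y-ChIP summit lay 53 to 92 bp upstream, and the median over the 687 genes with both summits within 1 kb of a TSS was 67 bp. The H3K4me3-ChIP summit lay 149 bp downstream at Tmpo, 336 bp at Lemd3, 369 bp at Lmnb1 and 374 bp at Lbr. The distance between the summits was therefore 220 bp at Tmpo, 401 bp at Lemd3, 422 bp at Lmnb1 and 466 bp at Lbr, beside quartiles of 166 and 413 bp over the 687 genes. Tmpo was near their median of 259 bp, and Lmnb1 and Lbr were above the upper quartile. The ratio of H3K4me3-ChIP to NF-Y-ChIP fold enrichment was 4.25 at Tmpo, 8.99 at Lemd3, 9.74 at Lmnb1 and 13.8 at Lbr. Lbr and Tmpo shared a strong mark, as strong as that of Lmnb1 between them, and differed in NF-Y-ChIP signal.

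Base composition differed among the promoters as well. The GC content of the promoter window was 72.4 to 77.4% at the 4 genes with an NF-Y-ChIP peak, Lbr, Tmpo, Lemd3 and Lmnb1, all above the upper quartile of 67.8% over the marked genes. It was 71.4% at Sun1 and 71.1% at Sun2, close below that range and also above the upper quartile. At Banf1 it was 66.1%, at Lmna 56.8%, at Lmnb2 55.5% and at Emd 53.5%. The observed over expected CpG ratio was 0.926 to 1.11 at these 4 genes, and Sun1 with 0.942, Lmnb2 and Banf1 with 1.04 each and Sun2 with 1.05 lay in the same range without an NF-Y-ChIP peak. Lmna had the lowest, 0.166, below the lower quartile of 0.573 over the marked genes, and Emd the next lowest, 0.717. The same 2 genes had the weakest H3K4me3-ChIP peaks, and the part of base composition in that was not tested.

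Several genes had more than 1 H3K4me3-ChIP peak. Lmna had 3, the 16.4-fold peak at the principal start (chr3:88502379-88503442), an 8.86-fold peak at the start of the transcript Lmna-206, 6631 bp upstream, and a 7.96-fold peak in an intron, 206 bp downstream of the start of Lmna-202. Tmpo had a second peak of 32.4-fold (chr10:91181133-91183014) about the start of Tmpo-211, with its summit 10018 bp upstream of the principal TSS and with no NF-Y-ChIP peak there. The second Emd peak, of 16.2-fold, lay 4778 bp upstream, just inside the 5 kb limit, and its summit was 89 bp from the start of Flna, which encodes the actin cross-linker filamin A. Lbr and Lemd3 had minor second peaks of 3.98-fold and 5.01-fold in introns downstream of the TSS. Lmnb1, Lmnb2, Banf1, Sun1 and Sun2 had 1 peak each.

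The other genes of the nuclear envelope were examined in 5 lists holding 72 genes. All 72 had an H3K4me3-ChIP peak, against 65.4% of all protein-coding genes. An NF-Y-ChIP peak was found at 4, or 5.56% with an interval of 2.18 to 13.4%, beside 3.69% of all protein-coding genes. The lists were chosen with earlier results of these data known, so no interval here is a test against that share. The 4 with a peak were nucleoporin genes, 12.9% of 31 with an interval of 5.13 to 28.9%. They were Nup93 with 8.12-fold enrichment, Nup88 with 7.17, Nup35 with 6.78 and Nup42 with 5.87. Their summits lay 39, 79, 26 and 12 bp upstream of the TSS, beside 53 bp at Lmnb1, the closest of the 4 genes, and 92 bp at Lbr, the farthest. Nup88 fell in that range, and the other nucleoporin summits were closer to the TSS. Nup93, Nup88 and Nup42 had a box within 50 bp of the summit, and Nup35 had none. The Nup88 peak is assigned also to Rpain, the gene of an RPA-interacting protein. No NF-Y-ChIP peak was found at 4 further LINC complex genes, 16 genes of LEM domain proteins and inner membrane partners, 5 of lamin processing and 16 of envelope breakdown and reassembly. The Wilson interval of 0 of 16 reaches 19.4%, and the simpler limit of 3 counts of 16 is 18.8%, both above the 3.69% of all protein-coding genes. Tmpo, at 20.1-fold, and Lmnb1, at 8.27-fold, were above all 4 nucleoporin genes, and Lemd3 and Lbr below all 4.

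The genes most like each of the 4 genes in both fold enrichments were found by distance on the log2 scale over the 2 lists, among 802 protein-coding genes with both kinds of peak. For Tmpo these were Ibtk, Ssx2ip and Recql at distances of 0.23 to 0.255, all 3 with a weaker H3K4me3-ChIP peak than Tmpo, of 72.5-fold to 77.2-fold. For Lmnb1 they were Glyr1 and Ubn1, which had the same pair of values, and Bag4, at 0.0637 to 0.0976. For Lbr they were Chmp4b, which encodes a subunit of the ESCRT-III membrane scission machinery, at 0.0218, and Rpa3 and Umad1 at 0.0495. For Lemd3 they were Ect2, Hmgb1 and Fads2, at 0.0147 to 0.032.

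For the tissue, H3K4me3-ChIP summits lay within 1 kb of a TSS at Emx1, Sox2, Pax6, Eomes and Tubb3, genes of cortical progenitors and neurons, as at 62% of all protein-coding genes. Alb, Krt5, Cd3e, Ins2, Myh6 and Hbb-bs, which mark other tissues, had no summit within 1 kb, and by the 5 kb rule used for the 10 genes Ins2 had a 7.83-fold peak, with the summit far upstream of its principal TSS. These markers were picked after their values were seen and are not a complete list, so they give values at single genes and no share.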

How the data were processed

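E13.5 mouse cortex gave 3 ChIP-seq libraries (input, NF-Y-ChIP and H3K4me3-ChIP). After trimming (Trimmomatic), the authors mapped the reads to mm10 (GRCm38) with Bowtie 2 (version 2.2.8 in the submitters' processing notes) and ran MACS2 (2.1.2). For NF-Y-ChIP they took peaks below a p of 0.001, whereas H3K4me3-ChIP was limited by a q of 0.05. Peak starts, ends and summits were used as deposited. The deposited fold enrichment is a ratio, summit signal over local background. Per peak, p-value and q-value are deposited as −log10. In every peak the deposited score equals −log10 p (NF-Y-ChIP, 733 peaks) or −log10 q (H3K4me3-ChIP, 18816 peaks) multiplied by 10 and truncated, and by this the lists were told apart. Read numbers are absent from both lists and the depth is unknown. The study used input as the negative control of the ChIP. Whether MACS2 was given it is not stated in the sources used here, and the input was not analysed. The study gives another number of H3K4me3 regions than the list used here holds, and all ranks refer to this list.

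A peak was assigned to a gene of GENCODE M21 by an overlap of 1 bp with the gene or its 5 kb upstream. Ranks are by fold enrichment, tied peaks sharing the best rank. CCAAT and ATTGG were searched on the GRCm38 reference. The RefSeq promoter table (GRCm38.p6) held 9 of the 10 genes. Shares have Wilson 95% intervals, which cover counting only. No test was made, since each antibody had 1 library. The genes and lists were chosen with earlier results of these data known. Named are the 10 genes, listed envelope genes with an NF-Y-ChIP peak, genes sharing a promoter peak and the 3 genes nearest in both fold enrichments; genes at neighbouring peaks and tissue markers were added after their values were seen, and 1 tissue marker examined is not reported here. The functions were tested on simulated data. Alternatives covered peak thresholds, gene limits, motif windows, the consensus and the TSS. Python 3.11.15, NumPy 2.4.6, pandas 2.3.3, pysam 0.24.0 and matplotlib 3.10.9 were used.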

Additional observations from a re-analysis of the deposited data

How the results depend on the processing

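Of 47 alternative values, 38 stayed within the limits set for them. The 47 count values of single genes beside their medians. They also include a setting for genes without an H3K4me3-ChIP peak, which could change nothing, since all 10 genes had such a peak. The 38 is therefore a tally and no measure of robustness. Keeping only NF-Y-ChIP peaks at or above the median fold enrichment left 2 genes, Lmnb1 and Tmpo, and dropped Lbr and Lemd3, beside 1.94% of all protein-coding genes. Within 25 bp of the summit 2 of the 4 NF-Y-ChIP peaks, those of Lbr and Tmpo, had a box, beside 72.6% of all NF-Y-ChIP peaks. The median distance of the NF-Y-ChIP summit from the TSS was -68 bp, became -66 bp from the nearest transcript of the gene and reversed to 261 bp from the 5′ end of the gene, where Lbr stood at 575 bp and Tmpo at 9666 bp downstream, because longer transcripts of both start farther upstream. By rank in the H3K4me3-ChIP list, Lbr and Tmpo were ahead of the others by a median of 2409.5 places. With a limit of 50 kb upstream 9 of the 72 other envelope genes had an NF-Y-ChIP peak in place of 4, and Lmnb2 joined the 4 genes. The share of all protein-coding genes rose from 3.69 to 6.61%. The envelope genes added were Syne4, Cbx1, Cbx5, Icmt and Ctdnep1, so no list stayed without a peak. Here a peak counted for every gene in reach, whereas the study gave such distant peaks to the closest gene. The peak joined to Lmnb2 lies at Gadd45b. Starts of RefSeq transcripts, chosen after seeing the data, gave a box at 8 of 9 genes in any entry, beside 42.1% of all protein-coding genes in that table, with Lmna and Banf1 added at alternative starts, and the 5′ end of the gene gave a box at 5 of 10, without Lbr and Tmpo.

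No paired analysis was possible because each antibody had 1 library and no test was made. The absence of a peak at Sun1, Sun2, Emd, Lmna, Lmnb2 and Banf1 holds at the threshold and the unknown depth of this list, and weaker binding there was not measured.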
